A study of Mus musculus with 6 samples.

Results

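Macrophage and dendritic cell genes were followed in adipose tissue of mouse offspring. A list of 43 genes that mark these cells was set out by name, and 42 of them could be measured among the 22180 genes of the arrays. For each gene, the probe set annotated to that 1 symbol and with the highest mean over the 6 arrays stood for the gene. The remaining gene, Clec9a, is a C-type lectin of cross-presenting dendritic cells, and its probe set is annotated to 2 genes, so it was left out.

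Of the offspring samples, 3 came from mothers under chromium restriction and 3 from mothers on the control diet. All 6 samples were adipose tissue taken at 32 weeks of age, with 1 array per sample. The sources used here do not give the strain, sex, fat depot or the offspring's own diet. Samples carry a number within their group, with no word on separate animals, and p-values therefore measure only the spread between these 6 samples, which may be technical.

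Adipose tissue holds resident macrophages that lie along vessels and between fat cells, take up debris and release lipid stepwise to their surroundings. In obesity, monocytes that carry the chemokine receptor CCR2 enter the tissue and become lipid-associated macrophages, which gather around dying adipocytes and express TREM2, CD9 and GPNMB. Dendritic cells, which take antigen to T cells, are a smaller population that develops under the receptor FLT3 and the factors IRF8 and BATF3. Kupffer cells are the macrophages of liver, and Clec4f is restricted to them in mouse, whereas Timd4 and Vsig4 also mark resident macrophages of the peritoneum and other tissues.

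The white adipocyte genes Fabp4, Lep and Cidec were at log2 values of 13.53 to 13.72, 11.75 to 12.00 and 12.77 to 13.09 over the 6 arrays, all far above the array medians of 5.44 to 5.57. Of 7 measured white adipocyte genes, 1 was called higher and 1 lower in limma, Retn at 1.52 (log2 difference, adjusted p = 0.00118) and Adipoq at -1.22 (adjusted p = 0.00495), and both are among the probe sets whose deposited values carry extra digits. Transcripts of other tissues set some arrays apart. Liver transcripts, averaged over 7 genes, stood at 11.33 in chromium restriction replicate 1 and at 10.90 in replicate 3, whereas replicate 2 (6.55) and the controls (6.56 to 6.94) were low. Chromium restriction replicate 2 had the highest mean of 7 intestinal epithelium genes (6.61, against 5.11 to 5.57 elsewhere), of 7 B and plasma cell genes (8.06, against 6.20 to 6.48) and of 9 T and NK cell genes (6.65, against 5.70 to 5.92). In the intestinal list Fabp2 was higher on all 3 chromium restriction arrays (7.30, 7.15 and 7.31, against 5.27, 5.50 and 5.04 in the controls, adjusted p = 0.00358 in limma), and Lgals4 did not overlap between groups either. With the probe sets that carry extra digits left out, 0 genes passed in limma, and the smallest adjusted p over all genes was 0.0732. Brown fat genes were highest in control replicate 1, with a mean of 8.42, followed by control replicate 3 at 6.70, and the other 4 arrays were at 5.50 to 5.84. All 6 mesothelium genes were lowest in control replicate 1, with a mean of 6.61, against 7.55 to 8.16 elsewhere. Of 7 neutrophil genes, 6 lay below the array median on all 6 arrays. The part of these transcripts in the values given here was not tested, except where a value without the array is printed.

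None of the 42 measured members passed an adjusted p of 0.05 in limma in either direction, where 0.194% of all genes did (43 of 22180, with 0.0902% higher and 0.104% lower). The smallest adjusted p among the members was 0.145, for Mpeg1. At an unadjusted p under 0.05 there were 7 members with higher values in the chromium restriction group (16.7% of the members, against 2.42% of all genes) and 2 with lower values (4.76%, against 3.53%). The mean of the chromium restriction arrays lay above the control mean for 34 of 42 members (81.0%), against 43.2% of all genes, and the median log2 difference was 0.19 over the members and -0.02 over all genes. The members' median was 0.049 with liver genes as a covariate (24 of 42 higher), 0.093 without both liver-rich arrays (28 higher) and 0.087 with array weights (29 higher). These are bulk samples, so a change in the number of cells of a type and a change in RNA per cell cannot be told apart.

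**Figure D1:**
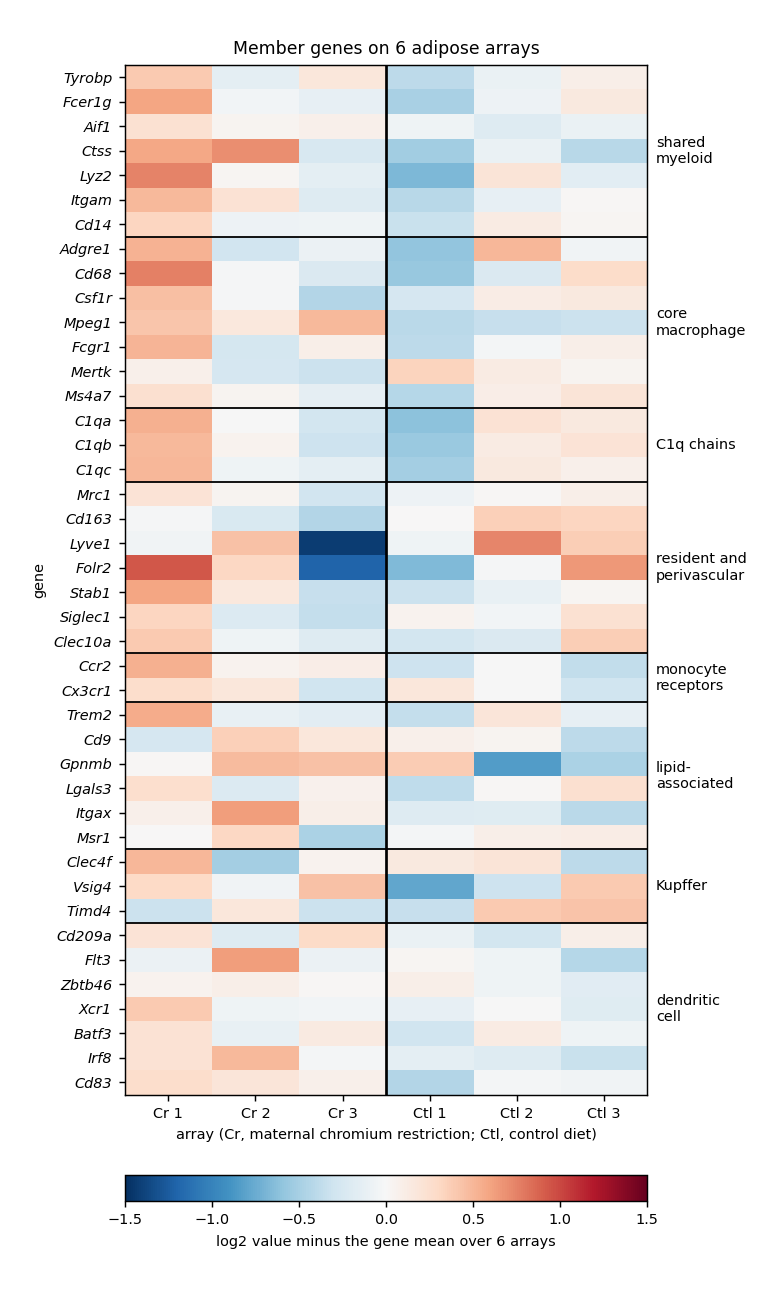
Each row is a member gene, each column an array, and the colour gives the log2 value minus the mean of that gene over the 6 arrays; lines separate the roles and the 2 maternal diets. Chromium restriction replicate 1 is red for most myeloid and macrophage genes, control replicate 1 is blue for most of them, and Lyve1 and Folr2 are lowest in chromium restriction replicate 3.

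That lean toward higher values came largely from a pair of arrays. Chromium restriction replicate 1 held the highest of the 6 values for 27 of 42 members (64.3%), although it held the highest value for 21.4% of all genes. Control replicate 1 held the lowest value for 21 of 42 members (50.0%), against 15.7% of all genes. Chromium restriction replicate 3 went the other way for a good part of the list and held the lowest value of 10 members (23.8%, against 15.3% of all genes). The other highest values fell 8 in chromium restriction replicate 2 and 3 in replicate 3 (12.9% and 11.8% of all genes), and 1, 2 and 1 in control replicates 1 to 3 (17.4%, 17.8% and 18.7%). The other lowest values fell 0 and 1 in chromium restriction replicates 1 and 2 (25.1% and 15.9% of all genes) and 3 and 7 in control replicates 2 and 3 (12.2% and 15.9%). Chromium restriction replicate 1 had 36 members above the control mean, by a median of 0.44 over the list (46.8% of all genes were above). Replicate 2 had 28 (median 0.09, 43.4% of all genes) and replicate 3 had 22 (median 0.01, 42.7%). Without chromium restriction replicate 1 the group mean was above the control mean for 22 of 42 members, with a median log2 difference of 0.036. Without control replicate 1 it was above for 25 members, with a median of 0.11. Chromium restriction replicate 1 was also the array richest in liver transcripts, and control replicate 1 the array richest in brown fat transcripts and poorest in mesothelium transcripts.

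**Figure D2:**
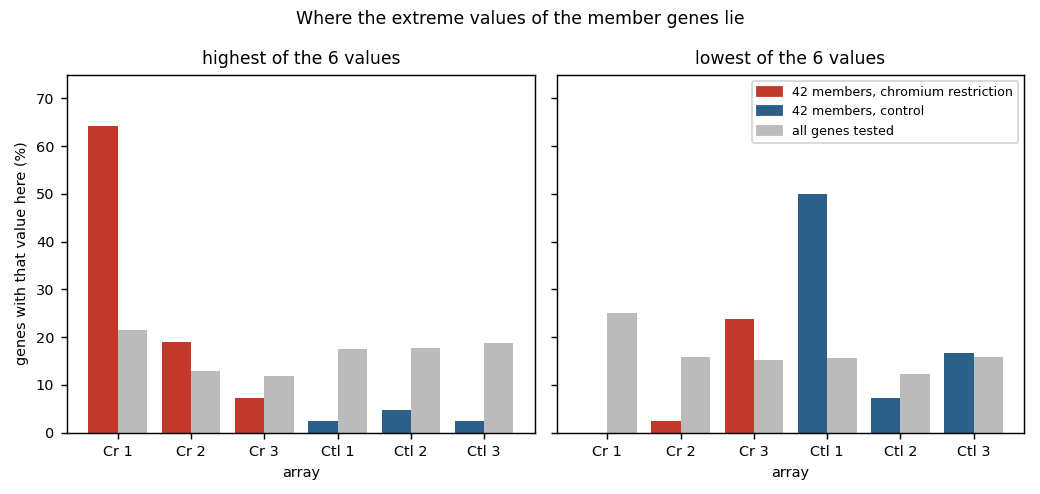
Bars give the percentage of genes whose highest (left) or lowest (right) value over the 6 arrays fell on each array, in colour for the 42 members and in grey for all 22180 genes. The tallest coloured bars are the highest values in chromium restriction replicate 1 (64.3%) and the lowest values in control replicate 1 (50.0%).

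Of the members, 7 had groups that did not overlap. Mpeg1, Aif1, Ccr2, Itgax, Irf8 and Cd83 were higher on every chromium restriction array than on any control (14.3% of the members, against 3.53% of all genes), and Cd163 was lower on every one (2.38%, against 6.06%). These 7 genes belong to different roles and are described with them.

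**Figure D3:**
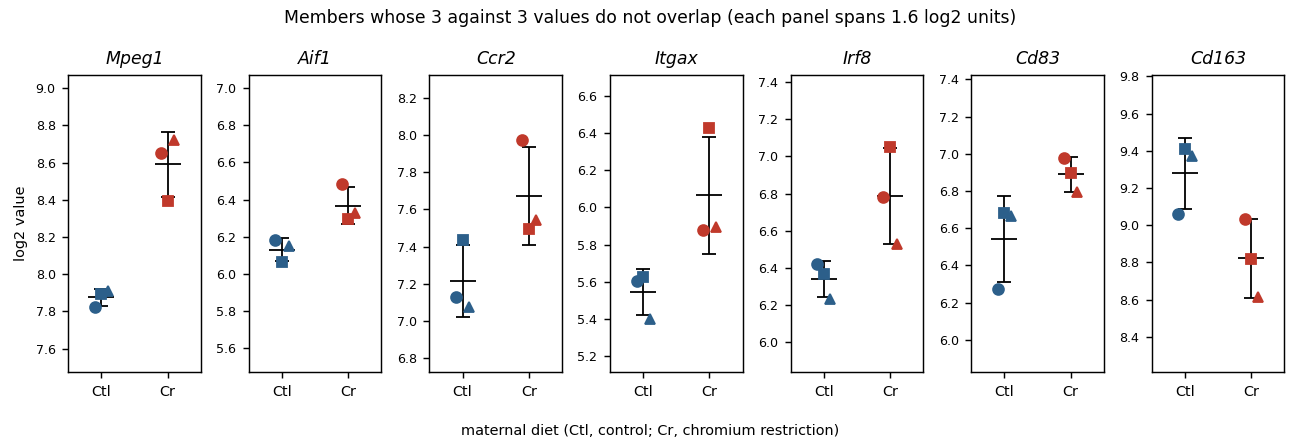
Points are the log2 values of single arrays (circle, replicate 1; square, replicate 2; triangle, replicate 3) for the 7 members without overlap, and black bars give the mean and SD of 3 arrays. The gap between groups is widest for Mpeg1 (0.485) and narrowest for Cd163 (0.027).

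Genes shared by macrophages, monocytes and other myeloid cells all had a higher mean in the chromium restriction group, 7 of 7, with a median log2 difference of 0.28. None passed the adjusted test, and 2 had an unadjusted p under 0.05. Without chromium restriction replicate 1 the mean was higher for 6 of 7, with a median of 0.16. With the liver covariate, or without both liver-rich arrays, it was higher for 5 of 7, with the median again at 0.16. Aif1, which encodes the actin-bundling protein IBA1, was at 6.48, 6.30 and 6.33 in chromium restriction replicates 1 to 3 and at 6.18, 6.06 and 6.15 in the controls. Its groups lay apart by 0.115 and differed by 0.24 ± 0.08 (log2 difference, SE, n = 3 per group, adjusted p = 0.805). Ctss, the lysosomal protease cathepsin S that trims the invariant chain of class II molecules, was at 10.10, 10.21 and 9.28 against 9.0, 9.42 and 9.10. Replicates 1 and 2 were above every control, whereas replicate 3 lay within the control range. The difference was 0.69 ± 0.26 (SE, adjusted p = 0.817), with a 95% interval of 0.05 to 1.33.

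Lyz2, the lysozyme gene of myeloid cells, was at 11.60, 10.89 and 10.72 with chromium restriction and at 10.19, 11.05 and 10.70 in the controls. The groups overlapped, with the extremes in replicate 1 of either group, and the difference of 0.42 ± 0.30 (SE) was within the spread of the arrays and was 0.16 without chromium restriction replicate 1. Tyrobp and Fcer1g, which encode the signalling adaptors DAP12 and the Fc receptor gamma chain, differed by 0.27 ± 0.18 and 0.28 ± 0.24 (SE). Itgam, the integrin CD11b, differed by 0.34 ± 0.20, and Cd14, the lipopolysaccharide co-receptor, by 0.13 ± 0.16. Of these 7 genes, 6 had their highest value in chromium restriction replicate 1 and 6 had their lowest in control replicate 1.

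Mpeg1, which encodes the pore-forming protein perforin-2 of macrophages, showed the largest difference of the core macrophage genes and of the whole list. Its log2 values were 8.65, 8.39 and 8.72 in the chromium restriction arrays and 7.82, 7.89 and 7.91 in the controls. The controls lay within 0.1 of each other and the lowest chromium restriction value was 0.485 above the highest control. The difference was 0.71 ± 0.10 (SE), a 1.64-fold higher level with a 95% interval of 0.47 to 0.96 on the log2 scale, and its adjusted p was 0.145 in limma. Without chromium restriction replicate 2 the difference was 0.81 and the adjusted p was 0.00900, the 1 setting in which a member passed. That setting leaves both liver-rich arrays as the chromium restriction group. In it 439 of all 22180 genes passed, against 43 with all arrays. In the other settings the adjusted p ran from 0.0689 to 0.812, the last without the probe sets whose deposited values carried extra digits. The log2 difference stayed between 0.52 and 0.81 in every setting tried, and was 0.52 with chromium restriction replicate 2, the array low in liver transcripts, as the only array of its group.

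The other core macrophage genes showed smaller differences. Of all 7 the mean was higher for 5, with a median of 0.10, and for 3 without chromium restriction replicate 1 or without control replicate 1, with medians of -0.0046 and -0.10. Csf1r, the receptor for the growth factor CSF1 on which macrophages depend, was at 9.71, 9.24 and 8.82 against 9.01, 9.37 and 9.41. The chromium restriction arrays reached both above and below the controls, and the means were the same to 2 decimals (9.26 and 9.26), with a 95% interval of the difference of -0.58 to 0.57. Adgre1, an adhesion receptor widely used to mark mouse macrophages, differed by 0.10 ± 0.32 and Cd68, a lysosomal glycoprotein, by 0.34 ± 0.31 (SE). Fcgr1, a high-affinity Fc receptor, differed by 0.23 ± 0.22 and Ms4a7, a membrane protein of tissue macrophages, by 0.09 ± 0.19. Mertk, the receptor kinase with which macrophages clear apoptotic cells, was on the lower side, at 8.15, 7.83 and 7.75 against 8.40, 8.20 and 8.12. Only chromium restriction replicate 1 reached the control range, and the difference of -0.33 ± 0.13 (SE) had an adjusted p of 0.817.

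C1q, the recognition part of the classical complement pathway, is built from 3 chains that tissue macrophages make together. C1qa, C1qb and C1qc took the same highest and lowest arrays. C1qb was at 9.77, 9.34 and 8.97 in the chromium restriction arrays and at 8.72, 9.40 and 9.49 in the controls. C1qc was at 8.41, 7.85 and 7.76 against 7.41, 8.06 and 7.99. For both, chromium restriction replicate 1 was highest, control replicate 1 was lowest and the other 4 arrays lay between, with replicates 2 and 3 of the chromium restriction group below control replicates 2 and 3. The log2 differences were 0.16 ± 0.29 for C1qa, 0.16 ± 0.27 for C1qb and 0.19 ± 0.24 for C1qc (SE, n = 3 per group), all within the spread. Without chromium restriction replicate 1, or without control replicate 1, the mean of each chain was below that of the controls. The median of the 3 log2 differences was then -0.051 and -0.086.

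Promoter sequences were set beside 4 of these genes, the C1q pair that moved together from array to array, Lyz2 as a general myeloid gene, and Mpeg1 as the gene with the widest gap between groups. PU.1 is the transcription factor on which macrophage genes depend, and AGGAAGT is the core of the sequence it binds. RefSeq promoters of build GRCm38.p6 were found for 33 of the 43 listed genes. AGGAAGT, read on both strands, occurred in the 250 bases before the start of 6 of them (18.2%), namely Lyz2, Fcgr1, C1qb, C1qc, Mrc1 and Folr2, and in 8.8% of all 27025 genes with a promoter. In the 4 sequences, written 5′ to 3′ in the direction of the gene and ending at the base before its start, capitals mark that match, which appears as its reverse complement ACTTCCT:
C1qb, chr4:136886201-136886450, minus strand: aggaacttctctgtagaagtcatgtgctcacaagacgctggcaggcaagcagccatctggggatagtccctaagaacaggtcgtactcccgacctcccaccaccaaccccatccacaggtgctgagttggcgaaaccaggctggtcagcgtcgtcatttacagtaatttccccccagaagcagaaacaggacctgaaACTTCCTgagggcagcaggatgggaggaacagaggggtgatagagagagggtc
C1qc, chr4:136892915-136893164, minus strand: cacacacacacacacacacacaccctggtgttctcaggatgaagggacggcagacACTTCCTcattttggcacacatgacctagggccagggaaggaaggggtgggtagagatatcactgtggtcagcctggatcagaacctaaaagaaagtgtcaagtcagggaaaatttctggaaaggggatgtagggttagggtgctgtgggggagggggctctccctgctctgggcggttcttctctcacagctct
Lyz2, chr10:117282273-117282522, minus strand: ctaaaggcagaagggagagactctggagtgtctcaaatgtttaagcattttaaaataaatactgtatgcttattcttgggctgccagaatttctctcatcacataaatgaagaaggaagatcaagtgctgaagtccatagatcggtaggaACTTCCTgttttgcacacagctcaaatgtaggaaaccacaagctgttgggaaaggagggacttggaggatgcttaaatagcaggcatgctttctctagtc
Mpeg1, chr19:12460520-12460769, plus strand: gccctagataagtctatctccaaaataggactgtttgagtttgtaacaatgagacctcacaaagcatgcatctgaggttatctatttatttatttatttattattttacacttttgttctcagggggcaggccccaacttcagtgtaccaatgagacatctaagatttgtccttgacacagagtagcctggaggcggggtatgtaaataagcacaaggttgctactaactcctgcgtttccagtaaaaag
The match began 53 bases before the start of C1qb, 195 before C1qc and 100 before Lyz2, and these letters were not in the Mpeg1 window. A match in the letters describes the sequence only.

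**Figure D4:**
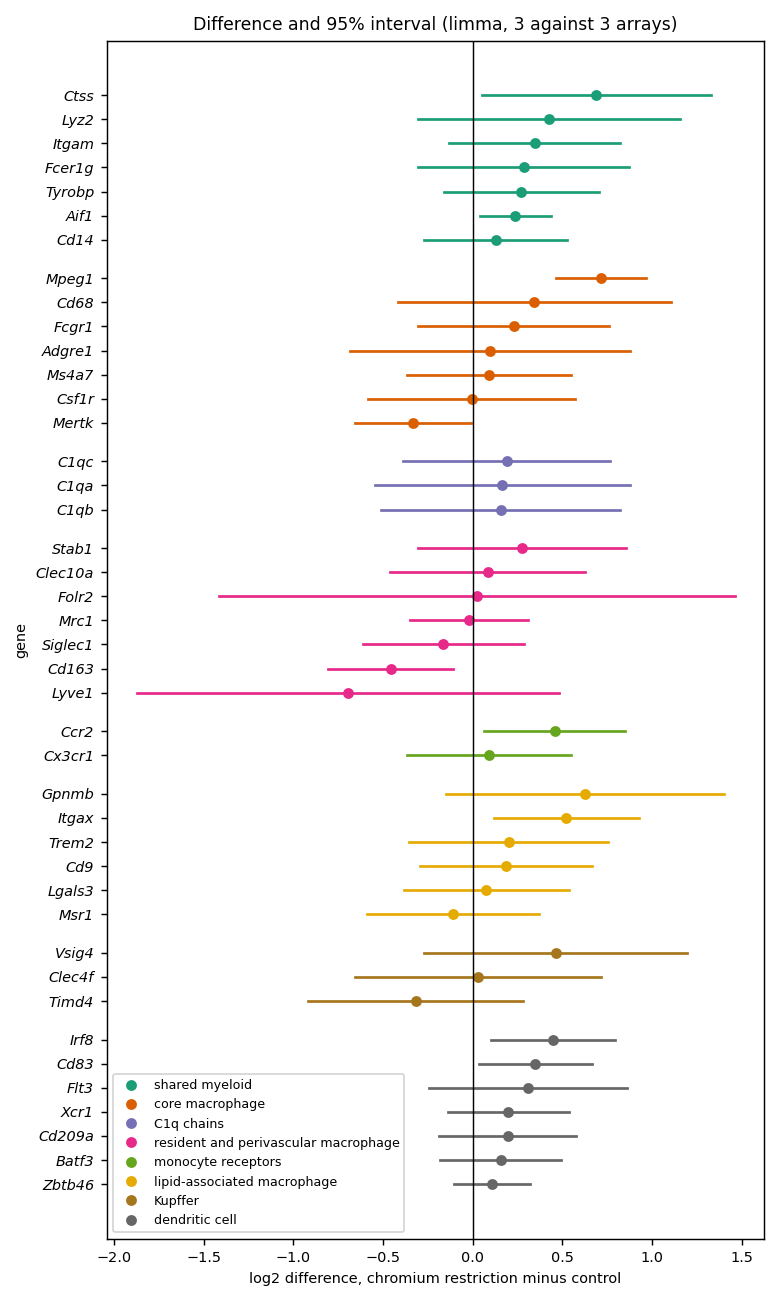
Points give the log2 difference (chromium restriction minus control) of each measured member and lines its 95% interval from limma, with 3 arrays per group, coloured by role. The interval of Mpeg1 (0.47 to 0.96) lies farthest from 0, and the widest are those of Folr2 (-1.42 to 1.46) and Lyve1 (-1.87 to 0.48).

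Resident and perivascular macrophage genes did not share the lean of the myeloid genes in their group means. Of 7, the mean was higher for 3 and lower for 4, with a median log2 difference of -0.02, and none passed the adjusted test. That balance moved with single arrays. Without chromium restriction replicate 1 the mean was higher for 1 and lower for 6, with a median of -0.36, without control replicate 1 the counts were the same with a median of -0.18, and without chromium restriction replicate 3 the median was 0.11. Cd163, the scavenger receptor for haemoglobin and haptoglobin, was at 9.03, 8.82 and 8.61 in the chromium restriction arrays and at 9.06, 9.41 and 9.37 in the controls. The groups did not overlap, but chromium restriction replicate 1 and control replicate 1 were only 0.027 apart. The difference was -0.46 ± 0.14 (SE), 1.37-fold lower, with a 95% interval of -0.81 to -0.11 and an adjusted p of 0.770. Mrc1, the mannose receptor CD206, was at 10.23, 10.06 and 9.74 against 9.95, 10.04 and 10.11, a difference of -0.02 ± 0.14 (SE) with an interval of -0.35 to 0.31.

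Lyve1, the hyaluronan receptor of perivascular macrophages that lymphatic endothelium also expresses, had the lowest log2 difference of the list. Its values were 8.53, 9.02 and 7.15 in the chromium restriction arrays and 8.52, 9.32 and 8.95 in the controls. Replicates 1 and 2 lay within the control range and only replicate 3 was below it. The difference was -0.70 ± 0.49 (SE, adjusted p = 0.928), and -0.16 without chromium restriction replicate 3. Folr2, a folate receptor of resident macrophages, was at 10.31, 9.68 and 8.17 against 8.71, 9.37 and 10.03. Chromium restriction replicate 3 was again lowest, replicate 1 was highest, and the difference was 0.02 ± 0.59, the largest SE of any member. Stab1, a scavenger receptor for modified lipoproteins, differed by 0.27 ± 0.24, Siglec1, the sialic acid receptor CD169, by -0.16 ± 0.19, and Clec10a, a galactose-type lectin, by 0.08 ± 0.22 (SE). In chromium restriction replicate 3, all 7 genes lay below the control mean, by a mean of -0.68, and 6 of 7 were at their lowest there. In replicate 1, 5 of 7 lay above the control mean and 5 of 7 were at their highest.

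The monocyte receptors were represented by Ccr2 and Cx3cr1. Ccr2, the receptor for the chemokine CCL2 that draws monocytes into inflamed tissue, was at 7.97, 7.50 and 7.54 in the chromium restriction arrays and at 7.13, 7.43 and 7.08 in the controls. Every chromium restriction value was above every control, by 0.062 at the nearest point. The difference was 0.46 ± 0.16 (SE), 1.37-fold higher, with an adjusted p of 0.812. Cx3cr1, the fractalkine receptor of patrolling monocytes and many resident macrophages, overlapped between groups (6.74, 6.64 and 6.17 against 6.65, 6.46 and 6.17), with a difference of 0.09 ± 0.19 (SE).

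Among the 6 lipid-associated macrophage genes the mean was higher for 5 and lower for 1, with a median log2 difference of 0.19 and none past the adjusted test. Without chromium restriction replicate 1 the mean was higher for 3 and lower for 3. With the liver covariate, or without both liver-rich arrays, it was higher for 4 of 6, with medians of 0.34 and 0.35. Itgax, the integrin CD11c that is shared by dendritic cells and by macrophages of obese fat, was at 5.88, 6.43 and 5.89 against 5.61, 5.62 and 5.40. The groups were 0.252 apart, replicate 2 stood above the other arrays, and the control values were close to the array medians. The difference was 0.52 ± 0.17 (SE, adjusted p = 0.770), and 0.34 without chromium restriction replicate 2, the array with the highest B and T cell transcripts. It was 0.87 with the liver covariate and 0.88 without both liver-rich arrays, where replicate 2 is the only array of its group. Gpnmb, a glycoprotein of lipid-laden macrophages, was at 6.90, 7.36 and 7.32 against 7.27, 6.04 and 6.40. Control replicate 1 was among the chromium restriction values and the other two controls were below them, so the difference of 0.62 ± 0.32 (SE) had an adjusted p of 0.844. Without control replicate 1 it was 0.97, and without control replicate 2 it was 0.36.

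Trem2, the lipid-sensing receptor that gives these cells their programme, was at 7.01, 6.34 and 6.29 against 6.09, 6.62 and 6.32. Only chromium restriction replicate 1 was above the controls, and the difference was 0.20 ± 0.23 (SE). Cd9, a tetraspanin that adipocytes and other cells also express, was at 8.19, 8.80 and 8.61 against 8.52, 8.48 and 8.04, with overlap and a difference of 0.19 ± 0.20 (SE). Lgals3, the galectin-3 gene, differed by 0.08 ± 0.19 and Msr1, a scavenger receptor for modified lipoproteins, by -0.11 ± 0.20. On each chromium restriction array, 4 of the 6 genes lay above the control mean, and 4 of 6 had their highest value in replicate 2.

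Kupffer cell genes were examined because a pair of arrays held liver transcripts. Clec4f, the lectin restricted to Kupffer cells, was at 6.76, 5.76 and 6.31 in the chromium restriction arrays and at 6.41, 6.46 and 5.87 in the controls. The liver-rich replicates 1 and 3 were above replicate 2, but control replicates 1 and 2, which had low liver transcripts, were as high as replicate 3. The difference was 0.03 ± 0.28 (SE), with an interval of -0.66 to 0.72. Vsig4, a complement receptor of the immunoglobulin family, was at 6.41, 6.06 and 6.54 against 5.33, 5.80 and 6.50. Control replicate 3 was level with the liver-rich arrays, and the difference was 0.46 ± 0.30 (SE). Timd4, the phosphatidylserine receptor TIM-4, ran opposite, at 6.14, 6.63 and 6.14 against 6.12, 6.85 and 6.89, a difference of -0.32 ± 0.25 (SE), and its liver-rich arrays were at the level of control replicate 1. The log2 differences without both liver-rich arrays were -0.49 for Clec4f, 0.18 for Vsig4 and 0.013 for Timd4. Vsig4 was at 0.16 with the liver covariate and at 0.19 without control replicate 1.

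**Figure D5:**
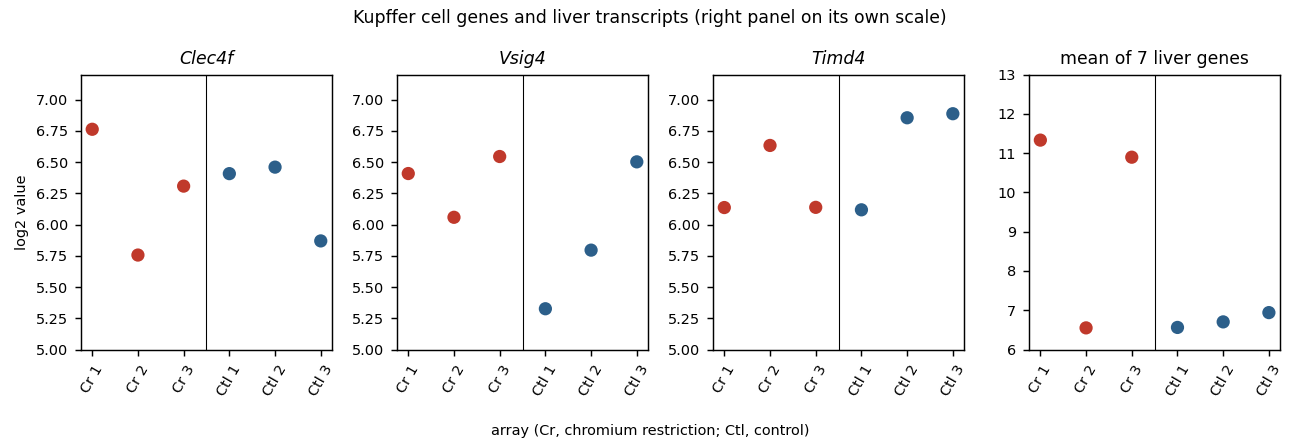
The first 3 panels plot the log2 values of Clec4f, Vsig4 and Timd4 on each array (red, chromium restriction; blue, control) on 1 common scale, and the last panel plots the mean of 7 liver genes on its own scale. The liver mean is 11.33 and 10.90 in chromium restriction replicates 1 and 3 and below 7 elsewhere, while the values of the 3 Kupffer genes overlap between groups.

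All 7 measured dendritic cell genes had a higher mean in the chromium restriction group, with a median log2 difference of 0.20, and this held for 7 of 7 whichever single array was left out. None passed the adjusted test (smallest adjusted p = 0.770), and 2 had an unadjusted p under 0.05. Irf8, the factor that directs the cross-presenting and plasmacytoid lineages and is also expressed in B cells, was at 6.78, 7.05 and 6.53 against 6.42, 6.37 and 6.23. The groups were 0.107 apart, with replicate 2 highest. The difference was 0.45 ± 0.14 (SE), 1.36-fold higher, and 0.32 without replicate 2, in which all 7 B and plasma cell genes were highest. Cd83, a surface protein of mature dendritic cells that activated B cells share, was at 6.98, 6.90 and 6.79 against 6.27, 6.68 and 6.67, with a gap of 0.111 and a difference of 0.35 ± 0.13 (SE, adjusted p = 0.817), which was 0.22 without control replicate 1.

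Flt3, the receptor for the growth factor that expands dendritic cells, was at 5.47, 6.18 and 5.47 against 5.58, 5.49 and 5.13. Replicate 2 alone was above the controls, and the difference was 0.31 ± 0.23 (SE). Xcr1, the chemokine receptor of cross-presenting dendritic cells, lay below the array median on all 6 arrays, at 4.87 to 5.44, and differed by 0.20 ± 0.14. Batf3, which that lineage needs, was at 5.21 to 5.72 and differed by 0.16 ± 0.14, and Zbtb46, a factor of conventional dendritic cells and endothelium, differed by 0.11 ± 0.09 (SE). Cd209a, the lectin DC-SIGN of monocyte-derived dendritic cells, has a pair of probe sets that disagreed. The one with the higher mean was at 9.96, 9.57 and 10.05 against 9.67, 9.48 and 9.85, a difference of 0.19, and the other differed by -0.027, with its highest value in control replicate 3. For Irf8 and Cd9 the second probe sets had means of 4.98 and 5.11 over the 6 arrays and differed by 0.039 and 0.055. Over all members, 37 of 42 were above the array median on every array, Xcr1 was below on every array, and Itgax, Vsig4, Flt3 and Batf3 were partly above. With liver genes as a covariate, or without both liver-rich arrays, 5 of 7 dendritic cell genes had a higher mean.

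Other genes of the same cells were taken from further lists. Over all genes, 2.42% were higher and 3.53% lower at an unadjusted p under 0.05 in limma. Of 15 measured growth factor and transcription factor genes, 0 passed the adjusted test, 0 were higher and 1 was lower at an unadjusted p under 0.05. Csf1, the growth factor bound by CSF1R, differed by 0.31 ± 0.13 and Id2, a factor required for dendritic cells, by 0.52 ± 0.22 (SE), and Nr1h3, the oxysterol receptor LXR alpha, by -0.41 ± 0.11 (SE, adjusted p = 0.707). Of 16 further genes of lipid-associated macrophages 0 passed and 2 were higher at an unadjusted p under 0.05. Atp6v0d2, a subunit of the lysosomal proton pump, differed by 0.65 ± 0.14 (SE, adjusted p = 0.547). Mmp12, the macrophage elastase, was at 5.94, 7.53 and 6.61 against 5.37, 5.40 and 5.07, a difference of 1.41 ± 0.38 (SE, adjusted p = 0.688). Apoe was at 8.66, 8.22 and 8.82 against 8.38, 8.01 and 8.14, a difference of 0.39 ± 0.18 (SE). Only the liver-rich replicates 1 and 3 were above every control. The median over this list was -0.03.

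Of 7 further Kupffer cell genes, the mean was higher for 7, against 43.2% of all genes. Of these, 3 had an unadjusted p under 0.05, where 2.42% of all genes were higher, and none passed the adjusted test. Fcna and C6 differed by only 0.06 and 0.03, and C6 and Slc40a1 had their highest value in a control. Cd5l, a secreted protein of tissue macrophages, was at 6.11, 5.88 and 6.09 against 5.22, 5.24 and 5.76, a difference of 0.62 ± 0.17 (SE, adjusted p = 0.679). Clec1b was at 5.29, 4.98 and 5.47 against 4.69, 4.81 and 4.94, below the array median on all 6 arrays, a difference of 0.43 ± 0.14 (SE). Marco, a scavenger receptor, differed by 0.39 ± 0.13 (SE). Cd5l and Clec1b were higher in the liver-rich replicates 1 and 3 than in replicate 2, whereas Marco was highest in replicate 2 (7.17). The part of liver transcripts in these values was not tested. Peritoneal macrophage genes went both ways, with 2 of 5 higher, and Icam2 differed by 0.36 ± 0.12 and Alox15 by -0.44 ± 0.19 (SE). None of 6 further monocyte genes reached an unadjusted p under 0.05. Of 16 further dendritic cell and class II genes 13 had a higher mean and 3 an unadjusted p under 0.05, which were H2-Ab1 at 0.32 ± 0.08, H2-Aa at 0.37 ± 0.11 and H2-Eb1 at 0.35 ± 0.13 (log2 difference, SE), chains of the class II molecules that present peptides to T cells. Their adjusted p was 0.632 to 0.817.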

How the data were processed

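Each sample of total adipose RNA gave 1 biotin-labelled array, per the labels. The authors deposited log2 values of 33793 probe sets, taken as log2 from their range of 3.49 to 14.86, and how they were summarised and normalized before deposit is not given in any label or header here. No further normalization was applied. In the supplied platform annotation 23521 probe sets carry 1 symbol, 1814 carry several and 8458 carry none. Differences (chromium restriction minus control) over all 22180 genes came from limma 3.58.1 (lmFit, eBayes) under R 4.3.3, two-sided, with Benjamini-Hochberg adjustment and a threshold of 0.05. The fit was tested on simulated data. SE is limma's standard error. The number of arrays, 3 per group, limits how precise any value is. Nearly all deposited values are the shortest form of a single-precision number, but 183 values in 64 probe sets (52 tested genes, 0 members) carry extra digits.

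The members and lists were chosen with earlier results of these data known. Values of all 6 arrays are printed for members with an unadjusted p under 0.05, for the member of each role with the highest mean or the largest difference, for the Kupffer genes, and for some others chosen after their values were seen. From further lists up to 3 genes with the smallest p are named. Of the lists of other cells, white adipocytes held 2 genes past the adjusted p and intestinal epithelium 1, as given above, and the others 0. Those of mast cell, mesothelium and endothelium genes had 0 genes past the adjusted p, with 0, 0 and 1 at an unadjusted p under 0.05.

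Alternatives were quantile normalization, centring on the median, a filter on dim genes (mean below that of the median gene), trended and robust eBayes, weights per array, averaging of probe sets, a block for replicate number, each array left out in turn, rows with extra digits left out, both liver-rich arrays left out, and a covariate made from Alb, Fgb, Ttr, Apoh, Apoa1, Apoa2 and Serpina1a.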

Additional observations from a re-analysis of the deposited data

How the results depend on the processing

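Over 16 alternative settings, 13 of the 21 members named by the rule kept the sign of their log2 difference in every one. Mpeg1, Aif1, Ccr2, Itgax, Irf8, Cd83 and Cd163 were among them. The groups of these genes do not overlap, so leaving out or weighting arrays could not turn their sign. The filter on dim genes (which drops Itgax), the eBayes options, the replicate block and leaving out rows with extra digits do not change a member's log2 difference. Averaging of probe sets changes that difference only for Cd209a, Cd9 and Irf8. For the other members, signs could turn only in the remaining settings. Members past the adjusted test numbered 0 in all settings but 1, with 0 to 1 over the single arrays left out. All genes past it numbered 43, and 24 to 439 with an array left out, 0 without rows with extra digits and 6 without both liver-rich arrays. The labels number the samples alike in both groups, but same-numbered samples did not deviate together (correlations of -0.12, -0.095 and 0.078 across genes), and 1 of the 6 samples, control replicate 3, correlated best with its own number. With the replicate number as a block 0 genes were called. At an unadjusted p under 0.05 in limma, 5 members were then higher and 1 lower, against 581 and 756 of all 22180 genes.

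Members higher at that p numbered 7 of 42 (537 of all 22180 genes), with 3 to 9 over single arrays left out (364 to 1013 of all genes). Under the filter on dim genes they numbered 4 of 38, against 395 of 11090 genes. Those lower numbered 2 (782 of all genes), with 0 to 3 over single arrays left out (557 to 1536 of all genes). They numbered 1 under quantile normalization (971 of all genes), the filter (522 of 11090) and trend and robust options (709). With the liver covariate they numbered 0 (304 of all genes). Members with a higher mean numbered 22 to 37 over single arrays left out, against 9463 to 10133 of all genes. The counts without overlap, added after seeing the data as was the preceding count, were 8 to 10 (higher) and 1 to 3 (lower) over single arrays and 14 and 4 without both liver-rich arrays, where 1 array faces 3. Those lower were 0 under quantile normalization and 2 under median centring. Leaving arrays out can remove an overlap but cannot create one. The share of all genes without overlap was computed only for the 6 arrays as deposited, not for any of these settings. The counts with arrays left out therefore cannot be read as a gain over those with all 6 arrays. Without both liver-rich arrays, 1 value outside the range of the controls is enough for a gene to be counted. The counts under quantile normalization and median centring cannot be set against all genes either.

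Signs that turned were of small or uneven differences, and the cause was not tested. Csf1r was 0.038 under quantile normalization and -0.23 to 0.21 over single arrays left out, and Mrc1 0.015 under quantile normalization, 0.028 without both liver-rich arrays and -0.13 to 0.11 over single arrays. C1qb was -0.027 with array weights and -0.086 to 0.35 over single arrays, and C1qc -0.0034 with the liver covariate and -0.018 to 0.31 over single arrays. Clec4f was -0.45 with the liver covariate, -0.49 without both liver-rich arrays and -0.21 to 0.29 over single arrays. Cd209a was -0.083 with the covariate and -0.100 without those arrays, where Lyve1 was 0.089 and Timd4 0.013. Signal over background is not known, so low values such as those of Xcr1 carry no fold.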
